A study of Homo sapiens with 10 samples.

Results

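The matrix metalloproteinases (MMPs) and their tissue inhibitors (TIMPs) were followed through 2 human pancreatic ductal adenocarcinoma lines with and without a ferroptosis inducer. The genes were taken by symbol: 6 metalloproteinases (MMP1, MMP2, MMP7, MMP14, MMP15 and MMP24) and 3 inhibitors (TIMP1, TIMP2 and TIMP3), 9 of the 20289 genes in the expression table. All 9 were found. The established lines CFPAC-1 and PANC-1 were each cultured for 24 h with imidazole ketone erastin (IKE), a drug that blocks cystine uptake, or with 0.1% DMSO as solvent control. There were 2 CFPAC-1 libraries with DMSO, 2 CFPAC-1 libraries with 10 µM IKE, 2 PANC-1 libraries with DMSO and 4 PANC-1 libraries with 1 µM IKE. In all groups RNA came from the cells left once dead cells and debris were taken away. No gene was edited in either line, as far as the labels say, and each line stands for 1 tumour.

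MMPs are zinc-dependent enzymes that cut collagens and other proteins of the extracellular matrix, and also shed proteins from the cell surface. Most are made as inactive precursors. Some are secreted (MMP1, MMP2, MMP7), others stay anchored in the plasma membrane (MMP14, MMP15, MMP24), and TIMPs bind the active site of the mature enzymes. MMP14 together with TIMP2 is the textbook route by which pro-MMP2 is activated at the cell surface. In the pancreas, MMP7 is known as an epithelial protease of metaplastic ducts and ductal carcinoma, whereas MMP2 is better known from stromal cells.

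Expression was given in FPKM, a unit that corrects fragment numbers for transcript length and library size, so that levels of different genes can be set side by side. Library totals were between 405937 and 472665 FPKM, with 11604 to 12248 genes at 1 FPKM or more. Read counts were not in the table, so the depth behind a value is unknown. The pancreatic ductal epithelial markers (KRT7, KRT8, KRT18, KRT19, EPCAM and CDH1) all had a mean of at least 1 FPKM in every group, 6 of 6. KRT7, KRT19, EPCAM and CDH1 were higher in CFPAC-1. KRT7 was at 271.36 to 330.41 FPKM in CFPAC-1 and 4.39 to 6.15 in PANC-1. In the same order, KRT19 was at 2006.19 to 2227.76 and 721.39 to 891.28. EPCAM was at 151.91 to 157.93 and 8.58 to 11.06, and CDH1 at 88.82 to 95.39 and 12.8 to 15.68. KRT18 alone was higher in PANC-1 (1238.59 to 1340.22 in CFPAC-1, 1465.25 to 1802.56 in PANC-1), and KRT8 overlapped. The 4 mesenchymal-state markers (VIM, ZEB1, CDH2, FN1) summed to 601 to 689 FPKM in CFPAC-1 and 1936 to 2109 in PANC-1. VIM made up most of that sum, while CDH2 (36.99 to 41.5 FPKM in CFPAC-1, 14.07 to 16.86 in PANC-1) and FN1 (23.42 to 34.64 and 0.87 to 1.29) were at the higher level in CFPAC-1. Of 7 fibroblast markers, 2 reached a group mean of 1 FPKM in CFPAC-1 and 3 in PANC-1, with sums of 7.27 to 10.2 and of 21.1 to 28.1 FPKM, and DCN lay at 0 to 0.11 in all libraries. The acinar markers PRSS1, CPA1 and CELA3A were at 0.27 FPKM or less throughout, and 0 of 3 reached a group mean of 1. Of 3 endothelial markers, PECAM1 was at 18.45 to 21.29 FPKM in CFPAC-1 and at 0.08 or less in PANC-1, while VWF and CDH5 did not exceed 0.30 in any library. Of 5 leukocyte markers, 3 reached a group mean of 1 FPKM in CFPAC-1 and 1 in PANC-1, with sums of 77.8 to 84.2 and of 25.3 to 33.1 FPKM, and PTPRC was at 0.03 or less.

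On GRCh38 with the GENCODE 29 annotation, the 9 genes lie on 7 chromosomes. MMP7 (chr11:102520508-102530753, minus strand) and MMP1 (chr11:102789920-102798160, minus strand) share a cluster of metalloproteinase genes. MMP2 (chr16:55389700-55506691) and MMP15 (chr16:58025566-58046901) are both on the plus strand of chromosome 16. MMP14 is at chr14:22836557-22849027 and MMP24 at chr20:35226654-35277000, both on the plus strand. TIMP1 (chrX:47582313-47586789, plus strand) lies within SYN1 on the opposite strand, and TIMP3 (chr22:32801701-32863043, plus strand) within SYN3. TIMP2 is at chr17:78852977-78925387 on the minus strand. The sources used here do not say whether reads were assigned by strand, which leaves overlapping genes uncertain. That matters for MMP24, whose opposite-strand neighbour MMP24OS was listed at 11.29 to 13.97 FPKM, above MMP24 itself in every library. It also matters for TIMP3, which did not exceed 0.28 FPKM, while SYN3 was listed at 0.01 to 0.43. SYN1 was at 0.65 FPKM or less, far below TIMP1.

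The stretch before the transcription start is shown for MMP7, which differed most between the lines, and for the membrane-type gene MMP14, which was also higher in CFPAC-1. The windows come from RefSeq (GRCh38.p14), where 6 of the 9 genes have one, and each line gives the 250 bases before the RefSeq start, 5′ to 3′ on the gene's strand. They cover chr11:102530748-102530997 (minus) for MMP7 and chr14:22836335-22836584 (plus) for MMP14. The GENCODE gene start lies 6 bases before the RefSeq start in MMP7 and 28 bases before it in MMP14. Capitals mark exact matches, on either strand, to the AP-1 consensus TGAGTCA, an AP-1 variant TGAGTAA, the TATA box TATAAA, the GC box GGGCGG and the TCF/LEF core CTTTGA.
MMP7: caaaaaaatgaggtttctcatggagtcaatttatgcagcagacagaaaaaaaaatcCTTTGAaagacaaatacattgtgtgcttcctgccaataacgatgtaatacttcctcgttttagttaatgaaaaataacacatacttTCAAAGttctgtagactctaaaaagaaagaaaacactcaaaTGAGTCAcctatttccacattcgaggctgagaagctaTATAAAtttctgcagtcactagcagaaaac
MMP14: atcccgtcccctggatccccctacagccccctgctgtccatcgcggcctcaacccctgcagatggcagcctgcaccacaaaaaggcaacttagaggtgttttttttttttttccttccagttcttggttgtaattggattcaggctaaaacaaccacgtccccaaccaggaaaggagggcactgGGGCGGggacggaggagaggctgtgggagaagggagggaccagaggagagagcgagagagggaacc
The MMP7 window held a TATA box starting 30 bases before the start, an AP-1 consensus at 67 bases and TCF/LEF cores at 108 and 194 bases, and no GC box. Over all 35116 RefSeq windows of 300 bases (250 before and 50 after the start), 11.5% held the TATA letters, 4.9% the AP-1 consensus, 12.9% the TCF/LEF core and 45.0% a GC box. MMP14 held 1 GC box, at 66 bases. The windows of MMP15 and TIMP1 were searched too, and there the GENCODE gene start lies 188 and 123 bases before the RefSeq start, so that much of each window is inside the gene as GENCODE draws it. MMP15 held 5 GC boxes, from 217 to 65 bases before the RefSeq start. TIMP1 held GC boxes at 135 and 45 bases and the AP-1 variant, present in 2.6% of windows, at 101 bases. MMP24 held GC boxes at 87, 58 and 45 bases, and TIMP3 at 166, 158, 131, 76 and 18 bases. Over the 300 bases, the GC content was 35.7% for MMP7, 55.0% for MMP14, 65.0% for TIMP1 and 75.3% for MMP15. It was 72.7% for TIMP3 and 80.0% for MMP24, against a median of 58.7% over all windows. These letters are a description of the sequence and do not show that a factor bound there.

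Without drug the lines carried different metalloproteinases. MMP7 dominated CFPAC-1, MMP2 dominated PANC-1, the membrane-type enzymes MMP14 and MMP15 and the inhibitor TIMP2 were several-fold higher in CFPAC-1, and TIMP1 was close to even. All 8 genes that passed the filter on low values (at least 1 FPKM in at least 2 libraries) differed between the lines at an adjusted p under 0.05 in limma, 1 higher and 7 lower in PANC-1. That threshold was passed by 78.7% of the 13077 genes tested (43.4% higher and 35.2% lower in PANC-1), so the count itself is close to the background. The genes were chosen with earlier results of these data known, so the sizes are a description and not independent support. The median difference was −1.43 on the log2 scale over the 8 genes and 0.12 over all genes. MMP2 and MMP24 passed the filter only through the line in which they were high, so the filter itself favoured a difference. Less RNA per cell and fewer cells that make a transcript cannot be told apart in such bulk samples.

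Among the secreted enzymes, MMP7 (matrilysin), a small protease of glandular epithelium, was at 1116.81 and 1182.33 FPKM in the CFPAC-1 libraries with DMSO and at 2.62 and 1.5 in those of PANC-1. The mean was 558 times higher in CFPAC-1, 1149.6 ± 46.3 (SD, n = 2) against 2.06 ± 0.792 (SD, n = 2). On the scale of log2(FPKM + 1), which understates the change of low genes, this was a difference of −8.58 (SE 0.14, limma adjusted p = 6.72e-13), the seventh largest in size of the 13077 genes tested. No other gene of the set was so far apart between the lines.

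MMP2, the gelatinase that degrades type IV collagen of basement membranes, ran the other way. It was at 0.31 and 0.37 FPKM in CFPAC-1 with DMSO and at 82.22 and 72.16 in PANC-1 with DMSO, means of 0.340 ± 0.0424 and 77.2 ± 7.11 (SD, n = 2 each) and a ratio of 227. The log2 difference was 5.86 (SE 0.11, limma adjusted p = 1.46e-12), rank 64 by size. The fibroblast and mesenchymal-state marker sums given above were also higher in PANC-1, mostly through COL1A1 (17.94 to 24.94 FPKM against 3.56 to 5.64 in CFPAC-1) and VIM. Other markers of these lists were at the lower level in PANC-1: CDH2 and FN1, COL1A2 (0 to 0.16 FPKM against 0.19 to 0.24) and ACTA2 (1.44 to 1.71 against 2.38 to 2.9), and LUM and DCN were at 0.12 or less there. The part of these cells or states in the MMP2 difference was not tested. MMP1, an interstitial collagenase, was low in both lines and did not overlap between them. It was at 3.48 and 3.36 FPKM in CFPAC-1 and at 1.17 and 1.38 in PANC-1, a log2 difference of −0.96 (SE 0.13, limma adjusted p = 3.23e-05).

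The membrane-anchored enzymes of the set were all lower in PANC-1. MMP14, a collagenase of the cell surface, stood at 113.75 and 110.91 FPKM in CFPAC-1 and at 11 and 10.43 in PANC-1, a ratio of means of 10.5 and a log2 difference of −3.27 (SE 0.09, limma adjusted p = 3.16e-11). MMP15, a closely related membrane-type enzyme, stood at 14.13 and 11.92 FPKM against 2.41 and 1.89, a ratio of 6.06 and a log2 difference of −2.16 (SE 0.14, limma adjusted p = 6.90e-08). MMP24, a membrane-type enzyme best known from neural tissue, was near the limit of the filter. Its values were 1.54 and 1.15 FPKM in CFPAC-1 and 0.65 and 0.53 in PANC-1, a log2 difference of −0.56 (SE 0.11, limma adjusted p = 7.75e-04). This call was lost after quantile normalization, with a difference of −0.13 and a limma adjusted p of 0.334, and with a pseudocount of 0.1 in place of 1 the difference was −1.06.

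Of the inhibitors, TIMP2, which both blocks MMPs and takes part in pro-MMP2 activation, was at 87.41 and 84.23 FPKM in CFPAC-1 and at 22.95 and 21.27 in PANC-1. Its ratio of means was 3.88 and its log2 difference −1.91 (SE 0.08, limma adjusted p = 9.93e-10). TIMP1, a soluble inhibitor of most secreted MMPs, was at 135.03 and 131.65 FPKM in CFPAC-1 and at 114.12 and 106.64 in PANC-1. This was the smallest line difference of the 8 genes, −0.27 on the log2 scale (SE 0.08, limma adjusted p = 0.00650). Without PANC-1 DMSO replicate 2 it was −0.22 and no longer called (adjusted p = 0.0571), and after median-ratio scaling, which moved the median of all genes from 0.12 to −0.01, it was −0.41 (adjusted p = 3.07e-04). TIMP3, the inhibitor that binds to the matrix, was at 0.01 FPKM and listed at 0 in CFPAC-1, and at 0.18 and 0.27 in PANC-1. It failed the filter and was not tested in the main comparison. With no filter, TIMP3 differed by 0.28 between the lines on the log2 scale (limma adjusted p = 0.00165). At such values reads from the overlapping SYN3, listed at up to 0.43 FPKM, could not be told apart.

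**Figure D1:**
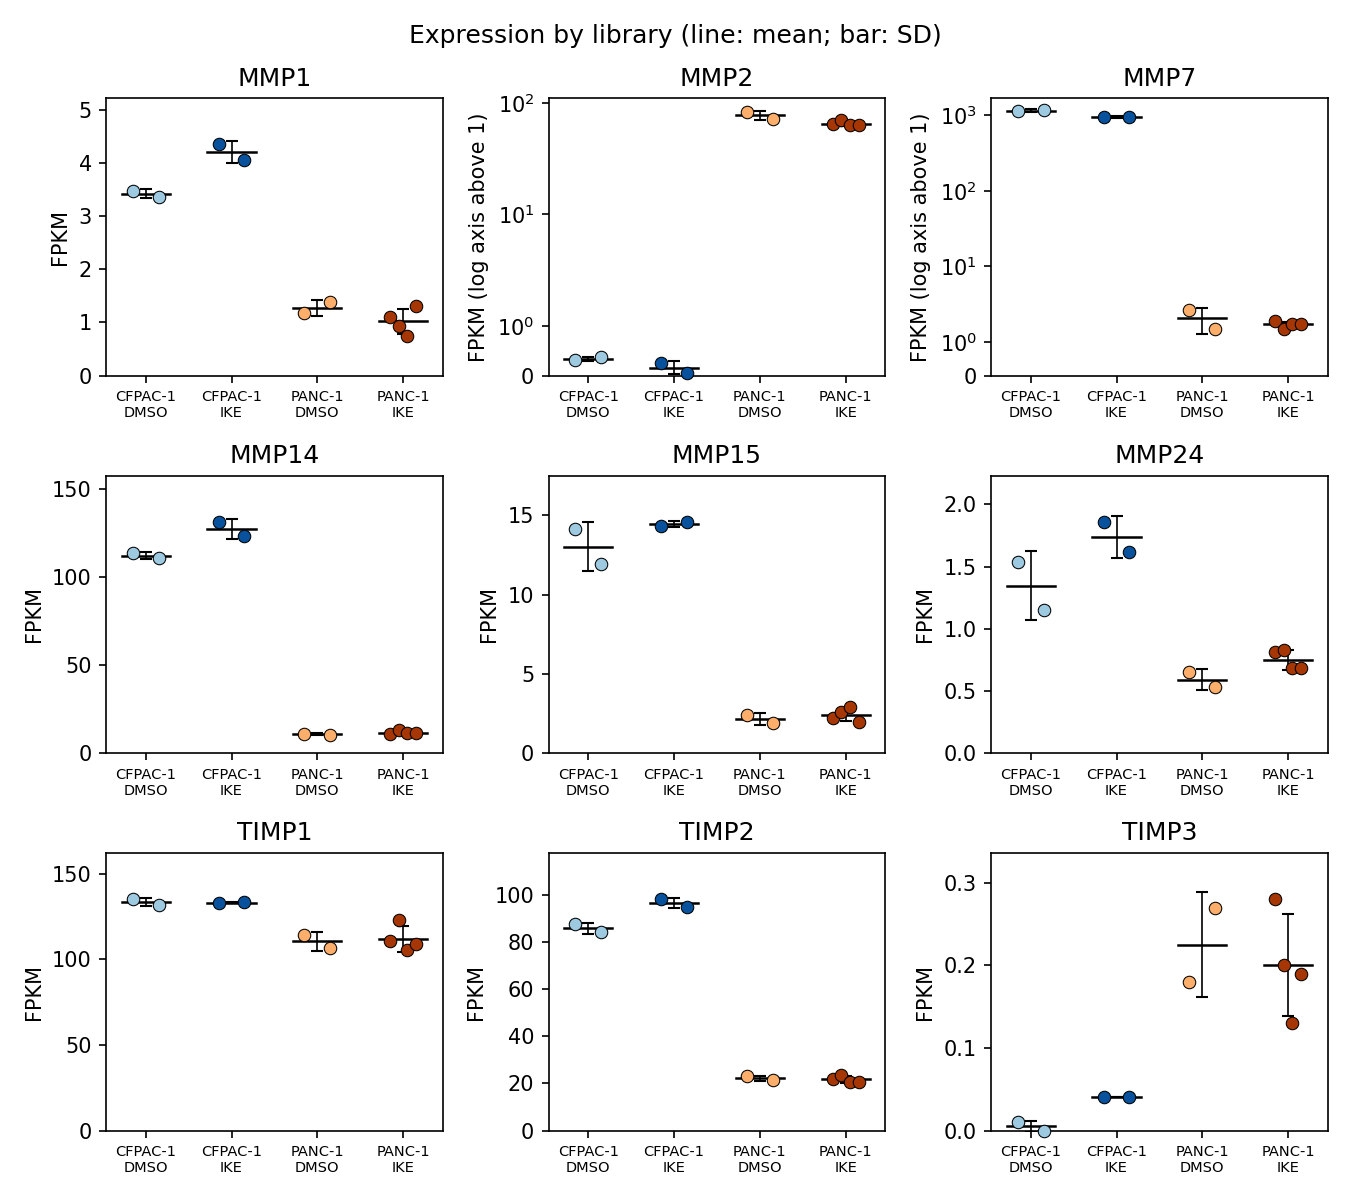
FPKM of the 9 genes (vertical axes, each with its own range; for MMP2 and MMP7 linear to 1 and logarithmic above) in the 4 groups, with 1 point per library, a line at the mean and a bar for the SD. MMP7 lies between 932.11 and 1182.33 in CFPAC-1 and at 2.62 or less in PANC-1, MMP2 shows the opposite order, and the TIMP1 points of all groups lie between 105.15 and 135.03.

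The order of the genes within a line followed from these levels. In CFPAC-1 with DMSO it ran MMP7, TIMP1, MMP14, TIMP2, MMP15, MMP1, MMP24, MMP2, TIMP3, with no overlap between libraries of neighbours. In PANC-1 with DMSO it ran TIMP1, MMP2, TIMP2, MMP14, MMP15, MMP7, MMP1, MMP24, TIMP3, and the libraries of MMP15 and MMP7 overlapped. Thus TIMP1 was the highest of the set in PANC-1, while MMP7 exceeded it in CFPAC-1. Sums of FPKM put this on 1 scale and were not tested. The 6 MMPs summed to 1250.02 and 1310.04 FPKM in CFPAC-1 with DMSO and the 3 TIMPs to 222.45 and 215.88, an MMP to TIMP ratio of 5.62 and 6.07. In PANC-1 with DMSO the MMPs summed to 100.07 and 87.89 and the TIMPs to 137.25 and 128.18, a ratio of 0.729 and 0.686. MMP transcripts outnumbered TIMP transcripts per length in the CFPAC-1 libraries, and the opposite held in PANC-1. MMP7 made up 89.3% and 90.3% of the MMP sum in CFPAC-1 with DMSO, and MMP2 82.2% and 82.1% of it in PANC-1 with DMSO. The share of MMP14 was much more alike, 9.10% and 8.47% in CFPAC-1 and 10.99% and 11.87% in PANC-1. TIMP1 held 60.70% and 60.98% of the TIMP sum in CFPAC-1 and 83.1% and 83.2% in PANC-1, nearly all of the rest being TIMP2.

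**Figure D2:**
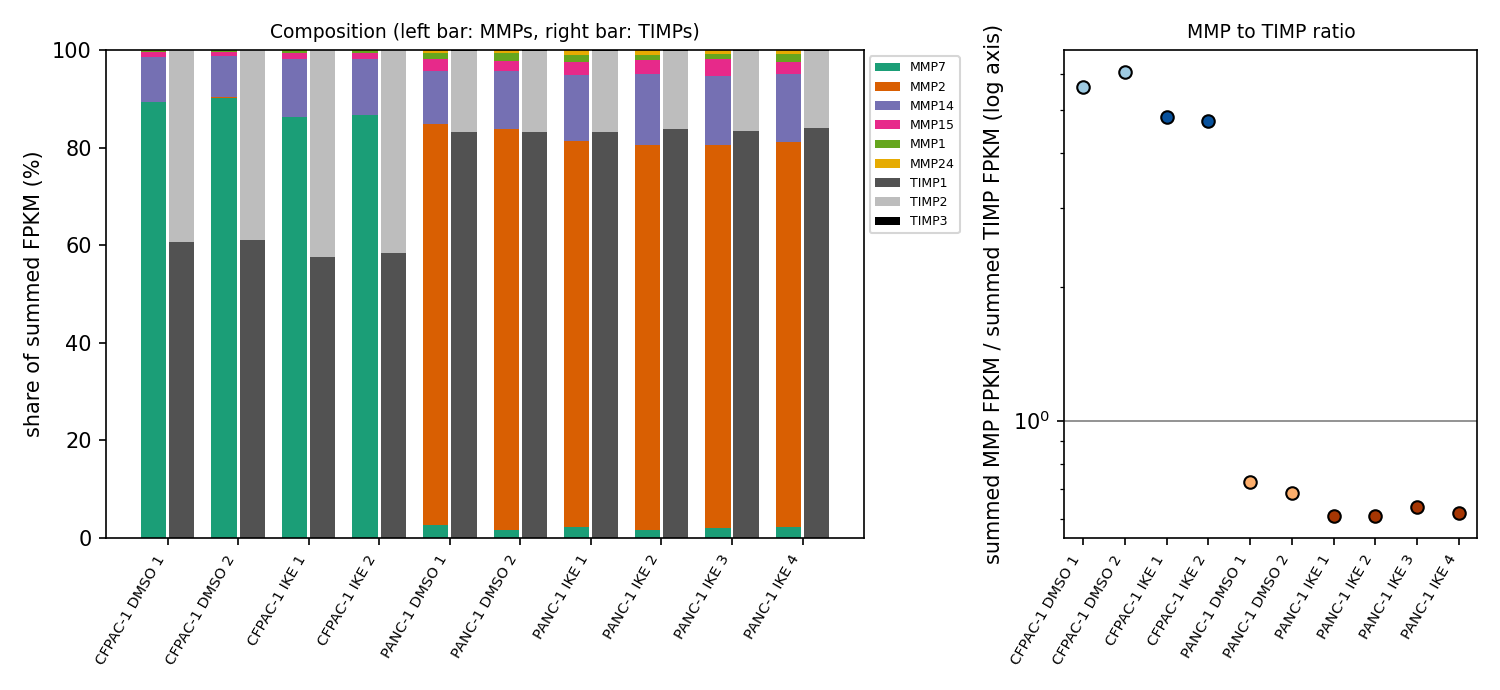
Left, share of each gene in the summed FPKM of the 6 MMPs (left bar of each pair) and of the 3 TIMPs (right bar) in each library. Right, ratio of the MMP sum to the TIMP sum per library on a log axis, with a line at 1: the 4 CFPAC-1 libraries lie between 4.71 and 6.07 and the 6 PANC-1 libraries between 0.611 and 0.729.

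MMP7 and MMP1 belong to a cluster of 9 MMP genes within 435 kb of chromosome 11, and the neighbours did not share the level of MMP7. In CFPAC-1 with DMSO, MMP1, whose start is 267.4 kb from that of MMP7, had a mean of 3.42 FPKM. MMP13, at the far end, 425.0 kb away, was at 1.21 and 1.36 FPKM there and was listed at 0 in all 6 PANC-1 libraries. MMP10, a stromelysin, was at 0.13 and 0.39 FPKM in CFPAC-1 and at 0.03 in both PANC-1 libraries with DMSO. MMP20, MMP27, MMP8, MMP3 and MMP12 did not exceed 0.03 FPKM in any library. The high level in CFPAC-1 was thus that of a single gene of the cluster, at its end.

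**Figure D3:**
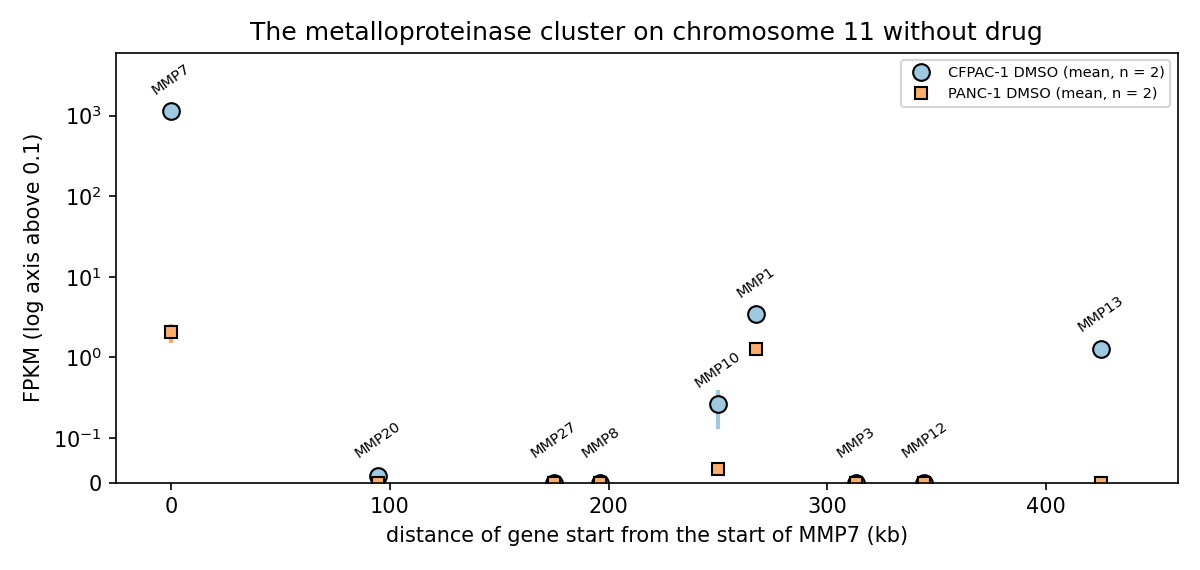
Mean FPKM with DMSO (vertical axis, logarithmic above 0.1) of the 9 MMP genes of the chromosome 11 cluster against the distance of each gene's start from that of MMP7 in kb; circles are CFPAC-1, squares PANC-1, n = 2 each, and vertical bars give the range. MMP7 in CFPAC-1 (1149.57 FPKM) stands above every other gene, and MMP1 (3.42) and MMP13 (1.285) are the next highest there.

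The genes closest in profile were sought among all tested genes, as the smallest root mean square difference of log2(FPKM + 1) over the 10 libraries after each gene's own mean was taken off. The measure is dominated by the difference between the lines and is a description only. Closest to MMP7 were DMBT1 (0.11), TM4SF4 (0.14) and TCN1 (0.21), which had means of 433.0, 385 and 588 FPKM in CFPAC-1 with DMSO and of 0.225 or less in PANC-1. Closest to MMP2 were the collagen gene COL5A2 (0.14), the potassium channel gene KCNMA1 (0.17) and the aminopeptidase gene ANPEP (0.24), at 78.7, 72.3 and 76.5 FPKM in PANC-1 with DMSO and 0.405 or less in CFPAC-1. For MMP14 they were TTC22, SLFN5 and MARCHF9 (0.08, 0.08 and 0.09), and for MMP15 IFT46, PTAFR and GRB14 (0.11, 0.12 and 0.12). For TIMP2 they were LRP10, SORT1 and TMPRSS13 (0.06, 0.06 and 0.07).

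In CFPAC-1, the comparison of 10 µM IKE with DMSO asked whether the survivors of the drug had altered these genes. None of the 8 tested genes was called by limma, and 0 had an unadjusted p under 0.05, where 1.32% of all tested genes were called (0.864% higher and 0.459% lower with IKE) and 13.6% had such a p. The adjusted p-values ran from 0.388 to 0.996. The libraries of 7 of the 8 genes did not overlap between treatments, against 46.9% of all tested genes, 5 of them higher with IKE (23.0% of all) and 2 lower (23.9% of all). Among these, MMP2 was at 0.37 FPKM or less in CFPAC-1 and was tested only through its level in PANC-1. A difference could arise inside the surviving cells or through the loss of others, which cannot be told apart.

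MMP7 was at 957.01 and 932.11 FPKM with IKE, both below the 1116.81 and 1182.33 with DMSO. The means were 945 ± 17.6 and 1149.6 ± 46.3 (SD, n = 2 each). The log2 difference was −0.28 with a 95% interval from −0.59 to 0.02 (limma adjusted p = 0.409), that is from −33.4% to 1.43%. When each line was fitted alone the adjusted p was 0.0501, the lowest of its alternatives. MMP2 was near 0 in both treatments, at 0.25 and 0.06 FPKM with IKE. MMP1 had 4.35 and 4.06 FPKM with IKE, above both DMSO libraries, and a log2 difference of 0.24 (95% interval −0.05 to 0.52, limma adjusted p = 0.483).

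MMP14 was at 131.63 and 123.58 FPKM with IKE, also above both libraries with DMSO, with a log2 difference of 0.18 (95% interval −0.02 to 0.38, limma adjusted p = 0.415). MMP15 was at 14.34 and 14.59 FPKM and MMP24 at 1.86 and 1.62, with log2 differences of 0.15 and 0.23 (limma adjusted p = 0.741 and 0.417). TIMP2 was at 98.12 and 94.93 FPKM with IKE, a log2 difference of 0.17 (95% interval −0.01 to 0.34, limma adjusted p = 0.388). So MMP1, all 3 membrane-type enzymes of the set and TIMP2 had their IKE libraries above their DMSO libraries, and MMP7 and MMP2 below, with none past the threshold. TIMP1 was level. Its IKE libraries, 132.72 and 133.27 FPKM, lay between its DMSO libraries, and the 95% interval of the log2 difference was −0.17 to 0.16, or from −11.2% to 12.0%. TIMP3 was at 0.04 FPKM in both libraries with IKE. The MMP sum was 1109.44 and 1076.02 FPKM with IKE and the ratio to the TIMP sum 4.81 and 4.71, both below the ratios with DMSO. The share of MMP7, itself not called, in the MMP sum was 86.3% and 86.6%, and that of MMP14 11.9% and 11.5%. The sums and their ratio were not tested.

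In PANC-1, where IKE was given at 1 µM, the question was the same and no tested gene of the set was called either, 0 of 8 by limma. MMP2 alone had an unadjusted p under 0.05. Over all tested genes 2.38% were called (1.21% higher and 1.17% lower with IKE) and 17.6% had an unadjusted p under 0.05. The adjusted p-values of the set ran from 0.212 to 0.937. Libraries did not overlap between treatments for 2 genes, against 25.9% of all tested genes: MMP24 was higher with IKE (12.3% of all) and MMP2 lower (13.6% of all). MMP24 was at 0.83 FPKM or less in PANC-1 and was tested only through its level in CFPAC-1.

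MMP2 was at 64.14, 70.56, 63.16 and 63.49 FPKM in the 4 IKE libraries and at 82.22 and 72.16 with DMSO. All 4 lay below both controls, with replicate 2 close to the lower control. The means were 65.3 ± 3.51 (SD, n = 4) and 77.2 ± 7.11 (SD, n = 2), and the log2 difference was −0.24 (95% interval −0.44 to −0.03, limma adjusted p = 0.212). MMP24 was at 0.81, 0.83, 0.68 and 0.68 FPKM with IKE, each above the 0.65 and 0.53 with DMSO, with a log2 difference of 0.14 (limma adjusted p = 0.514).

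The other genes overlapped between treatments. MMP14 was at 10.92, 13.19, 11.29 and 11.11 FPKM with IKE against 11 and 10.43, and MMP15 at 2.22, 2.56, 2.93 and 1.98 against 2.41 and 1.89. Their log2 differences were 0.11 and 0.12 (limma adjusted p = 0.537 and 0.695). MMP1 was at 1.11, 0.94, 0.75 and 1.3 FPKM and MMP7 at 1.87, 1.49, 1.70 and 1.75, with log2 differences of −0.17 and −0.16 (limma adjusted p = 0.469 and 0.552). TIMP1 was at 110.40, 122.84, 105.15 and 108.69 FPKM and TIMP2 at 21.88, 23.55, 20.77 and 20.44. The 95% interval of the log2 difference was −0.13 to 0.16 for TIMP1 and −0.18 to 0.12 for TIMP2. TIMP3 stayed between 0.13 and 0.28 FPKM. The MMP to TIMP ratio was 0.612, 0.611, 0.639 and 0.621 with IKE, each below the 0.729 and 0.686 with DMSO. MMP2, itself not called, made up 78.4% to 79.1% of the MMP sum, and the ratio was not tested.

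**Figure D4:**
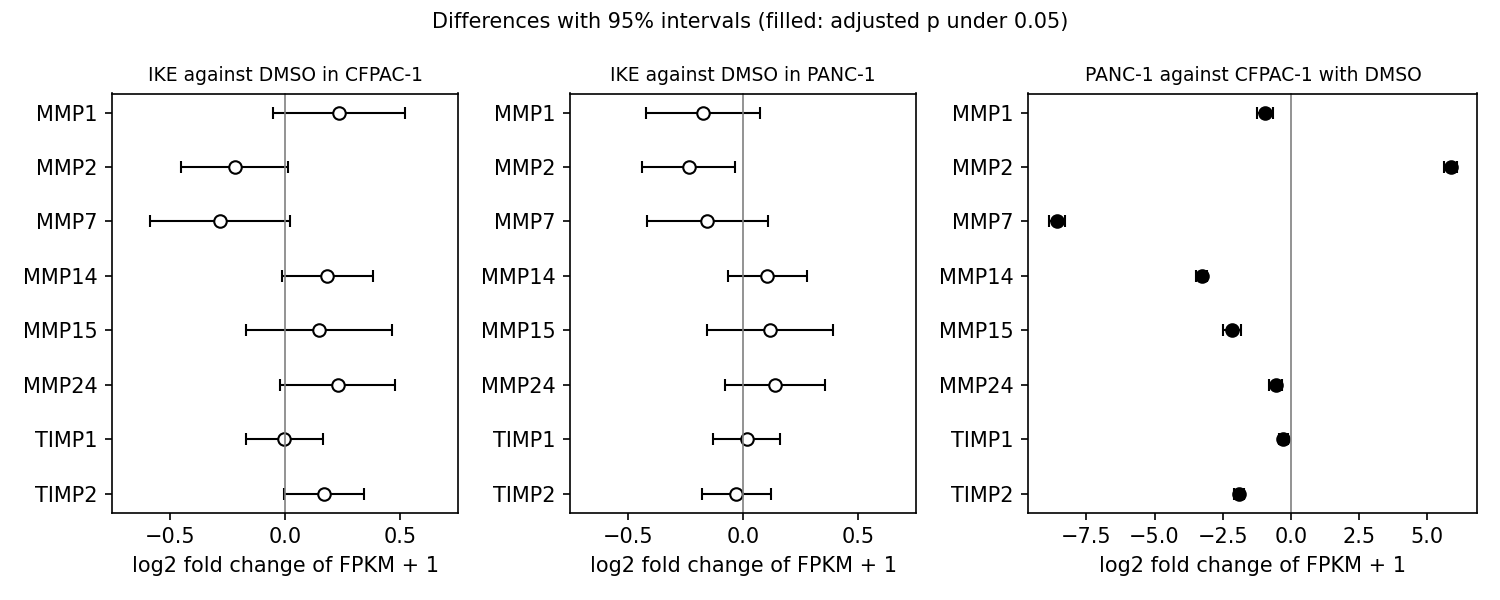
Log2 fold change of FPKM + 1 (horizontal axis) with its 95% interval for the 8 tested genes, for IKE against DMSO in each line and for PANC-1 against CFPAC-1 with DMSO, on a wider axis; filled points have a limma adjusted p under 0.05. No point is filled in the IKE panels, where the intervals together span −0.59 to 0.52, and all 8 are filled in the line panel.

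The IKE effect did not pass the test for a difference between the lines in any of the 8 genes, where 0.336% of all tested genes did (0.107% in the positive and 0.229% in the negative direction). MMP1 alone of the 8 had an unadjusted p under 0.05, as did 12.35% of all tested genes, with a log2 difference of −0.41 between the effects (95% interval −0.79 to −0.03, limma adjusted p = 0.364). For TIMP2 it was −0.20 (95% interval −0.43 to 0.03, limma adjusted p = 0.474). The doses differed between the lines, so line and dose cannot be told apart.

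Genes that activate, block or regulate MMPs were read from 6 lists. Of 18 further genes, other MMPs and TIMP4, 4 passed the filter. Between the lines 2 were higher and 1 lower in PANC-1, where 43.4% of all tested genes were higher and 35.2% lower. Higher were the membrane-type MMP16, with mean values of 7.81 FPKM against 0.055 in CFPAC-1 (log2 difference 3.06, limma adjusted p = 5.44e-09), and MMP17, with 5.18 against 0.035 (2.58, limma adjusted p = 1.58e-08). Lower was the collagenase MMP13 (−1.19, limma adjusted p = 2.76e-07). Both lines thus carried membrane-type MMPs, MMP14 and MMP15 at the higher level in CFPAC-1 and MMP16 and MMP17 in PANC-1. All 3 further genes passed the filter only through the line in which they were high, and with a pseudocount of 0.1 the differences were 5.69 for MMP16, 5.30 for MMP17 and −3.79 for MMP13.

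Among the ADAM and ADAMTS proteases, relatives of the MMPs that shed membrane proteins or cut proteoglycans, 16 of 26 passed the filter. In PANC-1, 2 were higher and 13 lower, where 43.4% of all tested genes were higher and 35.2% lower. Of the 13, ADAM8, ADAM28, ADAMTS3, ADAMTS6, ADAMTS9, ADAMTS13, ADAMTS14 and ADAMTS16 passed the filter only through CFPAC-1. ADAMTS10, among the 2, passed only through PANC-1. For these genes the filter itself favoured the direction, so the counts are a description only. The smallest p-values went to ADAM28 (log2 difference −6.85, limma adjusted p = 3.80e-13), ADAM8 (−4.64, limma adjusted p = 3.20e-11) and ADAM9 (−2.14, limma adjusted p = 4.60e-10). Plasmin can activate several pro-MMPs. Of its activation system 10 of 12 genes were tested, 2 higher and 7 lower in PANC-1, beside the same shares of all tested genes. PLAT, SERPINB5 and SERPINF2, among the 7, passed the filter only through CFPAC-1. Tissue plasminogen activator PLAT had mean levels of 338 FPKM in CFPAC-1 and 0.795 in PANC-1 (log2 difference −7.56, limma adjusted p = 5.11e-13). The serpin SERPINB5 was also lower in PANC-1 (−4.24, limma adjusted p = 1.41e-11).

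The next list held proprotein convertases, which cleave the precursors of membrane-type MMPs, membrane and related serine proteases, and the protease inhibitor genes SPINT1 and SPINT2. Of its 14 genes 13 were tested, 5 higher (SPINT2 among them) and 6 lower (SPINT1 among them) in PANC-1. The smallest adjusted p-values there went to the serine protease genes TMPRSS4 (log2 difference −7.65), ST14 (−5.90) and PRSS8 (−5.24, or −8.27 with a pseudocount of 0.1). Other regulators numbered 13 tested of 15, 7 higher and 4 lower in PANC-1, with the smallest adjusted p for LCN2, a partner of gelatinase B (−9.70), the inhibitor TFPI2 (−4.94) and the caveolar protein gene CAV1 (1.56). Of 20 transcription factors known from MMP promoters, 19 were tested, 4 higher and 12 lower in PANC-1, with the smallest adjusted p, not the largest differences, for RUNX1 (−2.57), ETS2 (1.61) and ETV4 (−1.72). Over all tested genes 78.7% were called between the lines, 43.4% higher and 35.2% lower in PANC-1. ADAM28, ADAM8, PLAT, SERPINB5, TMPRSS4, PRSS8 and LCN2 passed the filter only through CFPAC-1, so the filter itself favoured a difference. Of the 75 genes tested from the 6 lists, 18 passed only through CFPAC-1, and 16 of them were called between the lines. Another 6 passed only through PANC-1, and 5 of them were called. Of the 51 that passed in both lines, 44 were called.

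With IKE none of the 6 lists had a called gene in CFPAC-1, by limma, while 10 of their 75 tested genes had an unadjusted p under 0.05, close to the 13.6% of all tested genes. In PANC-1, 21 of the 75 had an unadjusted p under 0.05, against 17.6% of all tested genes. Of the 19 transcription factors 10 had such a p and 2 were called, both higher with IKE, where 2.38% of all tested genes were called. FOSB, counted in the 10 and the 21, passed the filter only through PANC-1 libraries with IKE, so the filter itself favoured a rise. It was at 1.14, 0.68, 1.35 and 1.21 FPKM with IKE and at 0.53 and 0.63 with DMSO. FOSL1, an AP-1 subunit, was at 56.35, 53.28, 56.01 and 59.71 FPKM with IKE and at 33.29 and 39.64 with DMSO (log2 difference 0.62, limma adjusted p = 0.00769). JUN, its partner, was at 23.43, 18.84, 17.02 and 22.01 FPKM against 12.12 and 12.69 (0.66, limma adjusted p = 0.0144). The calls rest on few controls. Without PANC-1 DMSO replicate 1 the adjusted p was 0.138 for FOSL1 and 0.157 for JUN, and without replicate 2 it was 0.0886 for JUN. For FOSL1 it was 0.0519 with PANC-1 IKE replicates 1 and 2 alone. In the same libraries MMP1, a textbook AP-1 target, was at 0.75 to 1.3 FPKM with IKE and 1.17 and 1.38 with DMSO. These values are near the limit of the filter, and a link of FOSL1 or JUN to MMP1 was not tested.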

How the data were processed

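RNA was measured in 10 libraries. Per the labels' protocols, total RNA was depleted of rRNA and made into strand-marking libraries by digestion of the second strand. Per the submitters' processing notes, the build was GRCh38 and the tools were HISAT2 2.1.0, StringTie 1.3.4, Bowtie2 2.2.8, fastp 0.18.0 and DESeq2, the last without a version; what each was used for is not stated there. The authors deposited FPKM and no counts, and 9 further columns without values were not used. The labels call the replicates biological but do not say whether they were separate cultures, and p-values reflect the spread between the samples at hand, which may be technical.

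The 13077 genes that reached 1 FPKM in 2 or more libraries were analysed as log2(FPKM + 1), and 20257 of the 20289 genes have a symbol. A model of group means over the 10 libraries was fitted with limma 3.58.1 (R 4.3.3) and an intensity trend (6 residual and 5.1 prior degrees of freedom), two-sided, with Benjamini-Hochberg adjustment over all tested genes and a threshold of 0.05. The fit was tested on simulated data. All 9 genes are named, as are up to 3 called genes with the smallest adjusted p per list and comparison, and the 3 closest profiles for each gene whose group means span at least 2 log2 units. One gene of the lists is not reported here. Members and lists were chosen with earlier results of these data known. Alternatives were quantile and median-ratio normalization, no filter or a filter at 5 FPKM, a pseudocount of 0.1, a replicate block, a fit per line, no intensity trend, subsets of the PANC-1 IKE replicates, and each library left out in turn.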

Additional observations from a re-analysis of the deposited data

Results flagged for a closer look

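In the 4 PANC-1 libraries with IKE, the gap between the outermost library and its nearest neighbour, divided by the range of the group, was above Dixon's 95% critical value for 5 of 32 quantities tested. Chance gives about 1 in 20. The value was 0.868 for MMP2 and 0.837 for MMP14, both with replicate 2 as the highest library, at 70.56 and 13.19 FPKM. It was 0.918 for the summed FPKM of the MMPs, again with replicate 2 highest at 89.57 against 80.31 to 81.07 in the others. These 3 are not independent: MMP2 made up 78.4% to 79.1% of that sum, and replicate 2 also had the highest total over all genes, 472665 FPKM against 443772 to 449099 in the others. For the transcription factor gene ETV4 it was 0.918, with replicate 4 at 6 FPKM and the others at 5.02 to 5.10. For SERPINB5 it was 0.833, with replicate 2 at 0.16 FPKM and the others at 0.04 to 0.06.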

How the results depend on the processing

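No MMP or TIMP gene was called for IKE in either line, or for the difference between the lines, under any alternative run. Between the lines 8 were called as reported, 7 after quantile normalization, 9 without the filter, 6 with at least 5 FPKM (fewer genes tested) and 7 to 8 when each library was left out in turn. The number of genes called over the whole table was less stable, and the cause was not tested. For IKE in CFPAC-1 it was 173, with 262 after quantile normalization and 80 to 256 with a library left out. For IKE in PANC-1 it was 311, with 189 when each line was fitted alone, 172 with IKE replicates 1 and 2 alone, 471 with replicates 3 and 4 alone, and 42 to 504 with a library left out. For the difference between the lines it was 44, then 17, 69 and 13 to 62 under the same subsets and left-out libraries. Samples with the same replicate number did not deviate together (correlation of their deviations 0 in CFPAC-1 and 0.05 in PANC-1), so the numbers were not taken to pair them. With the replicate number as a block 79 genes were called in CFPAC-1, 63 in PANC-1 and 2 for the difference, and the adjusted p was 0.110 for FOSL1 and 0.0736 for JUN. Median-ratio scaling put the MMP sum at 1353 FPKM in CFPAC-1 with DMSO and 1147 with IKE, and the TIMP sum at 232 and 241.

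Signs changed only for differences that were not called. With a pseudocount of 0.1 the line difference of the IKE effect was 0.65 for MMP2 and 0.0049 for MMP15. With the replicate block, and with IKE replicates 1 and 2 alone, it was 0.026 for MMP2, and the PANC-1 effect was 0.037 for TIMP2. For TIMP1, quantile normalization gave 0.022 in CFPAC-1, −0.0081 in PANC-1 and −0.030 for the difference, and IKE replicates 3 and 4 alone gave −0.045 in PANC-1 and −0.041 for the difference. With a library left out, the PANC-1 effect ran from −0.42 to 0.11 for MMP7, from −0.0026 to 0.24 for MMP15, from −0.032 to 0.065 for TIMP1 and from −0.082 to 0.023 for TIMP2. The CFPAC-1 effect of TIMP1 ran from −0.022 to 0.015. The difference ran from −0.14 to 0.10 for MMP2, −0.14 to 0.39 for MMP7, −0.15 to 0.091 for MMP15, −0.21 to 0.030 for MMP24 and −0.029 to 0.068 for TIMP1. Depth is unknown, so the counting error of values near 0, as for TIMP3 and for MMP2 in CFPAC-1, cannot be given.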
